A study of Mus musculus with 6 samples.

Results

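Mtss1, Sbk1, Tedc2, Zfhx2, Gorasp1, Hes6, Lilra5 and Gm45140 had higher transcript levels in livers with an endothelial deletion of Sting1 than in control livers and are not members of one known pathway. They are 8 of the 21956 genes in the deposited table and 8 of the 13197 with enough counts to be tested. The members were chosen by the knockout-against-control contrast of the same 6 libraries: they are 8 of the 10 higher genes with the smallest p, and S1pr5 and Il15ra complete that 10. Their difference between the groups is therefore a description, and no test of it is given.

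Messenger RNA was measured by bulk sequencing of polyA RNA from the livers of 6 mice. Of these, 3 carried floxed Sting alleles and the endothelial Cre driver (Stingfl/fl Cdh5-Cre+, knockout), and 3 were their littermates with the same floxed alleles and no Cre (Stingfl/fl Cdh5-Cre-, control). Every animal ate chow until 8 weeks of age and then CDAHFD, a high-fat diet without choline that produces steatohepatitis, for 10 weeks; no animal on chow was analysed here. Sting1 encodes the adaptor that relays the sensing of cytosolic DNA. Cdh5 encodes the cadherin of endothelial junctions, and Cdh5-Cre drivers active in the embryo can also recombine in blood cells; the sources used here do not name the driver line. Cre was present in the knockout group only, so Cre and the deletion cannot be told apart.

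The members act in different places in a cell. Mtss1 bends membrane and binds actin, Tedc2 is a partner of the rare tubulins that stabilise centrioles, and Sbk1 is a serine/threonine kinase. Zfhx2 and Hes6 are nuclear regulators of transcription, Gorasp1 (GRASP65) tethers the cisternae of the Golgi stack, and Lilra5 is an activating immunoglobulin-like receptor of myeloid cells. Gm45140 is a gene model without a name of its own. The clock output genes Dbp and Ciart serve as a yardstick for the order of the libraries: in liver, clock genes cycle over the day under the activators Bmal1 and Clock, which bind the E-box sequence, and under the repressors Per, Cry and Ciart.

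Library totals ran from 16704664 to 21025461 counts. The targeted gene Sting1 had 106, 114 and 80 counts in knockout livers against 240, 365 and 226 in control livers, with no overlap (log2 fold change -1.29, standard error 0.23). No source used here gives the exon that Cre removes, and reads outside it would not show the deletion. Albumin alone took 6.91% to 10.9% of counts, and the summed hepatocyte markers stood at 66128 to 137656 CPM (counts per 1e6 counts), against 381.2 to 491.6 CPM for the endothelial markers. The labels name liver and also sinusoidal endothelial cells, and these levels are those of whole liver. Control replicate 2 stood apart, with the lowest albumin share and a TMM factor (the scaling of a library's size for its composition) of 1.26 against 0.922 to 1.01 in the other libraries. CPM below are scaled by TMM. In edgeR's quasi-likelihood test with Benjamini-Hochberg adjustment, 0 of 13197 genes (0%) passed an adjusted p of 0.05. The smallest was 0.357. Unadjusted, 1419 genes (10.8%) had a p under 0.05, and DESeq2 called 118.

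Mtss1 had the highest level per transcript length of the 8. It stood at 162.4, 152.1 and 172.7 CPM in knockout replicates 1 to 3 and at 69.7, 100.4 and 94.8 CPM in control replicates 1 to 3. Each knockout library lay above each control library, and control replicate 1 was the lowest of all 6. The means were 162.4 ± 10.3 CPM (SD, n = 3) in knockout and 88.3 ± 16.3 CPM (SD, n = 3) in control livers, a log2 fold change of 0.88 with a standard error of 0.17. In TPM, a scale per transcript length, knockout replicate 2 stood at 55.3 and control replicate 2 at 54.5, so that the groups almost touched there. The gene lies on chromosome 15 from 58941234 to 59082005, minus strand (GRCm38), and shares no exon base with another gene.

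Tedc2, the centriole protein, had the largest fold change of the 8, although Lilra5 exceeded it without knockout replicate 3 (1.34 against 1.06 on the log2 scale). Its levels were 31.2, 34.1 and 55.5 CPM in the knockout and 12.5, 14.2 and 20.3 CPM in the control libraries. Replicate 3 was the highest library of each group, and the groups did not overlap. The means were 40.3 ± 13.3 and 15.7 ± 4.08 CPM (SD, n = 3 each), with a log2 fold change of 1.36 and a standard error of 0.26. Tedc2 lies on chromosome 17 from 24215054 to 24220851, minus strand, and 6.5% of its exon bases are also exon of the antisense gene BC028777.

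Sbk1, the kinase, spread widely among knockout livers and hardly among control livers. Its levels were 24.3, 32.5 and 47.5 CPM in the knockout and 14.5, 14.4 and 16.0 CPM in the control libraries. Knockout replicate 3 lay well above the other two, and the lowest knockout library still exceeded the highest control library. Means of 34.8 ± 11.7 and 15.0 ± 0.891 CPM (SD, n = 3 each) gave a log2 fold change of 1.21 and a standard error of 0.23. Sbk1 lies on chromosome 7 from 126272619 to 126295016, plus strand, and overlaps no annotated gene.

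Hes6 and Zfhx2 regulate transcription. Hes6, a basic helix-loop-helix protein that counteracts Hes1, stood at 14.4, 19.1 and 23.6 CPM in the knockout and at 9.85, 7.66 and 10.6 CPM in the control libraries. The means were 19.0 ± 4.61 and 9.36 ± 1.52 CPM (SD, n = 3 each), with a log2 fold change of 1.02 and a standard error of 0.22. The libraries did not overlap, with knockout replicate 1 the nearest to the controls. Hes6 is a compact gene on chromosome 1 from 91411483 to 91414038, minus strand.

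Zfhx2, a large zinc finger and homeodomain protein known mainly from neurons, stood at 16.5, 17.3 and 22.4 CPM in the knockout livers. In the control livers it stood at 11.4, 10.3 and 9.66 CPM. The controls were close together and all below the knockout libraries. The means were 18.7 ± 3.19 and 10.5 ± 0.886 CPM (SD, n = 3 each), a log2 fold change of 0.84 with a standard error of 0.17. Zfhx2 lies on chromosome 14 from 55060262 to 55092324, minus strand. Of its exon bases, 17.9% are also exon of the antisense gene Zfhx2os and 10.0% of the antisense gene Gm20687. The libraries were strand-specific, but no source used here says that counting kept the strand, so reads of Zfhx2 and of these antisense genes cannot be told apart, nor can those of Tedc2 and BC028777.

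Gorasp1, the Golgi tether, had the smallest fold change of the 8. Its levels were 30.5, 29.1 and 36.1 CPM in the knockout and 19.0, 18.1 and 22.1 CPM in the control libraries. The groups did not overlap, and the means of 31.9 ± 3.69 and 19.8 ± 2.11 CPM (SD, n = 3 each) gave a log2 fold change of 0.69 with a standard error of 0.14. The gene lies on chromosome 9 from 119925257 to 119937565, minus strand, and 32.1% of its exon bases are also exon of Wdr48 on the other strand. Its estimated counts were not whole numbers in 6 of 6 libraries, which marks reads divided between genes. Wdr48, which encodes a partner of deubiquitinases, had a log2 fold change of -0.07 (standard error 0.13) and also no whole counts. How the shared reads were divided was not tested.

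Lilra5, the myeloid receptor, stood at 16.1, 12.2 and 9.78 CPM in knockout replicates 1 to 3 and at 4.75, 5.95 and 6.10 CPM in the control libraries. Knockout replicate 1 was the highest library, unlike in the other 7 members, where knockout replicate 3 was. The means were 12.7 ± 3.19 and 5.60 ± 0.740 CPM (SD, n = 3 each), with a log2 fold change of 1.18 and a standard error of 0.22. Lilra5 lies on chromosome 7 from 4237754 to 4243463, plus strand. In bulk liver, more cells of a type and more RNA per cell cannot be told apart, which bears on this myeloid receptor first of all.

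Gm45140 spread little within the groups in CPM. Its levels were 13.6, 13.9 and 14.8 CPM in the knockout and 7.78, 8.57 and 7.46 CPM in the control libraries. The groups did not overlap, with means of 14.1 ± 0.633 and 7.93 ± 0.568 CPM (SD, n = 3 each) and a log2 fold change of 0.83 with a standard error of 0.15. In TPM the control libraries spread more, at 3.19 ± 0.822 against 4.67 ± 0.212 (SD, n = 3 each). The model lies on chromosome 6 from 87788861 to 87835795, minus strand, and its exons join those of the splicing factor gene Isy1 to those of Rab43, a small GTPase gene of membrane traffic. Of its 5150 exon bases, 80.9% are also exon of Rab43, 14.5% are also exon of Isy1 and 4.6% belong to neither. The joins between the genes are what sets this model apart from both, so they are shown here from the reference genome, 20 bases on each side, 5′ to 3′ on the minus strand, with the Isy1 exon in lower case and the Rab43 exon in capitals. The first joins exon 2 to exon 3 of a model with 4 exons, and the second joins exon 8 to exon 9 of a model with 10 exons.
Gm45140, model of 4 exons: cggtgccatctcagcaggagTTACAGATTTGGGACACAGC
Gm45140, model of 10 exons: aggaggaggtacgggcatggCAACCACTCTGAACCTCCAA
Both sides of each join are coding sequence in the annotation. Reads across these joins were not counted here, and the estimated counts of Gm45140, Rab43 and Isy1 were not whole in 6 of 6 libraries each. Rab43 stood at 232.0, 165.4 and 223.2 CPM in the knockout and at 196.7, 134.6 and 188.0 CPM in the control libraries. Isy1 stood at 16.7, 18.5 and 16.1 CPM against 14.9, 15.3 and 20 CPM. Both overlapped between the groups, with log2 fold changes of 0.26 (standard error 0.20) and 0.03 (standard error 0.16). The summed level of the 3 genes also overlapped, at 197.8 to 262.3 CPM in knockout and 158.5 to 219.5 CPM in control livers. Gm45140 made up 5.17%, 7.02% and 5.82% of that sum in knockout replicates 1 to 3 and 3.54%, 5.4% and 3.46% in the control libraries, so that control replicate 2 lay above knockout replicate 1 in this share.

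**Figure D1:**
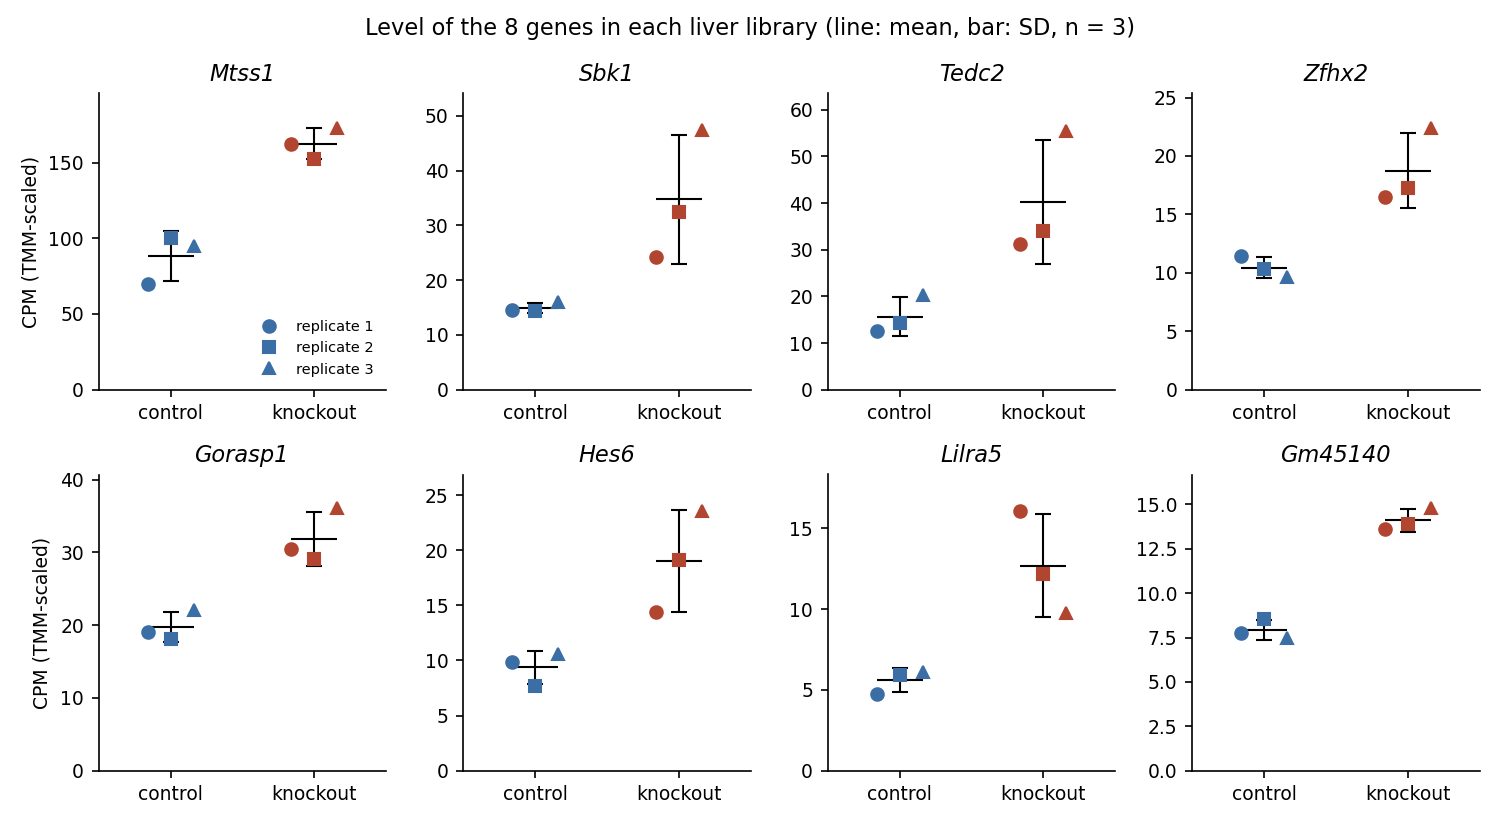
Level of each gene in CPM (TMM-scaled, linear axis from 0) in the 3 control and 3 knockout libraries. Marker shape gives the replicate number, the horizontal line the mean and the bar the SD. For all 8 genes the knockout libraries lie above the control libraries, and knockout replicate 3 is the highest library in 7 of them.

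Per length, the knockout means ran from 60.1 ± 4.35 TPM for Mtss1, 33.5 ± 11.1 for Tedc2 and 24.0 ± 5.85 for Hes6 to 14.2 ± 4.81 for Sbk1, 13.7 ± 1.55 for Gorasp1 and 10.1 ± 2.49 for Lilra5, and on to 4.67 ± 0.212 for Gm45140 and 3.03 ± 0.514 for Zfhx2 (SD, n = 3 each). Tedc2 and Hes6, and likewise Sbk1, Gorasp1 and Lilra5, lie within their spread in that order. All 8 members had no overlap between groups in TMM-scaled CPM, where 7.27% of all tested genes lay wholly above, and in TPM, where 1.38% did. DESeq2 called all 8 as higher against 0.278% of the genes to which it gave an adjusted p. Both counts follow from how the members were chosen and support nothing. In TMM-scaled CPM the highest control library reached 62.3% (Lilra5) to 76.0% (Gorasp1) of the lowest knockout library. In TPM the groups lay closer for all 8, and those of Mtss1 almost touched, as given above. The lowest knockout and the highest control library stood at 4.47 and 4.12 TPM for Gm45140 and 2.65 and 2.42 for Zfhx2. For Gorasp1 they were 12.7 and 11.3 TPM, for Lilra5 7.78 and 6.87 and for Sbk1 9.87 and 8.55. Hes6 had 17.9 and 14 TPM, and Tedc2 25.6 and 17.8. At the edge of the choice, Hes6 was the last of the first 10 by p, with a log2 fold change of 1.02. The next gene, C2cd2l, had 43.2, 55.5 and 48.2 CPM in the knockout and 29.9, 32.1 and 33.6 CPM in the control libraries, with a log2 fold change of 0.62.

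Dbp and Ciart ordered the knockout libraries in the same way. Dbp, a transcription factor of the clock's output, stood at 60.9, 36.0 and 88.3 CPM in knockout replicates 1 to 3 and at 34.0, 8.38 and 13 CPM in control replicates 1 to 3. Ciart, a repressor of Bmal1 and Clock, stood at 8.13, 4.70 and 12.1 CPM against 2.68, 1.90 and 0.537 CPM. In both genes knockout replicate 3 was highest and knockout replicate 2 lowest. Mtss1 and Gorasp1 shared that knockout order. In 5 members, Sbk1, Tedc2, Zfhx2, Hes6 and Gm45140, the order was replicate 3, then 2, then 1, which is the knockout order of Per2, a clock repressor (15.3, 28.9 and 33.6 CPM). Lilra5 had the opposite order, with replicate 1 highest and replicate 3 lowest. The order of Dbp was thus found in 2 of 8 members (25%), against 14.9% of the other tested genes and 23.4% of the other genes higher at an unadjusted p under 0.05. The order of Per2 was found in 5 of 8 (62.5%), against 16.6% and 25.3%. For this count the order was taken from Hes6, itself a member, so the share among the members supports nothing.

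The control libraries gave a different picture. Both Dbp and Ciart were highest in control replicate 1. Only 1 member, Zfhx2, had the control order of Ciart, and 0 had that of Dbp. Control replicate 3 was the highest control library for 5 members, Sbk1, Tedc2, Gorasp1, Hes6 and Lilra5, whereas Ciart had its lowest level there.

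**Figure D2:**
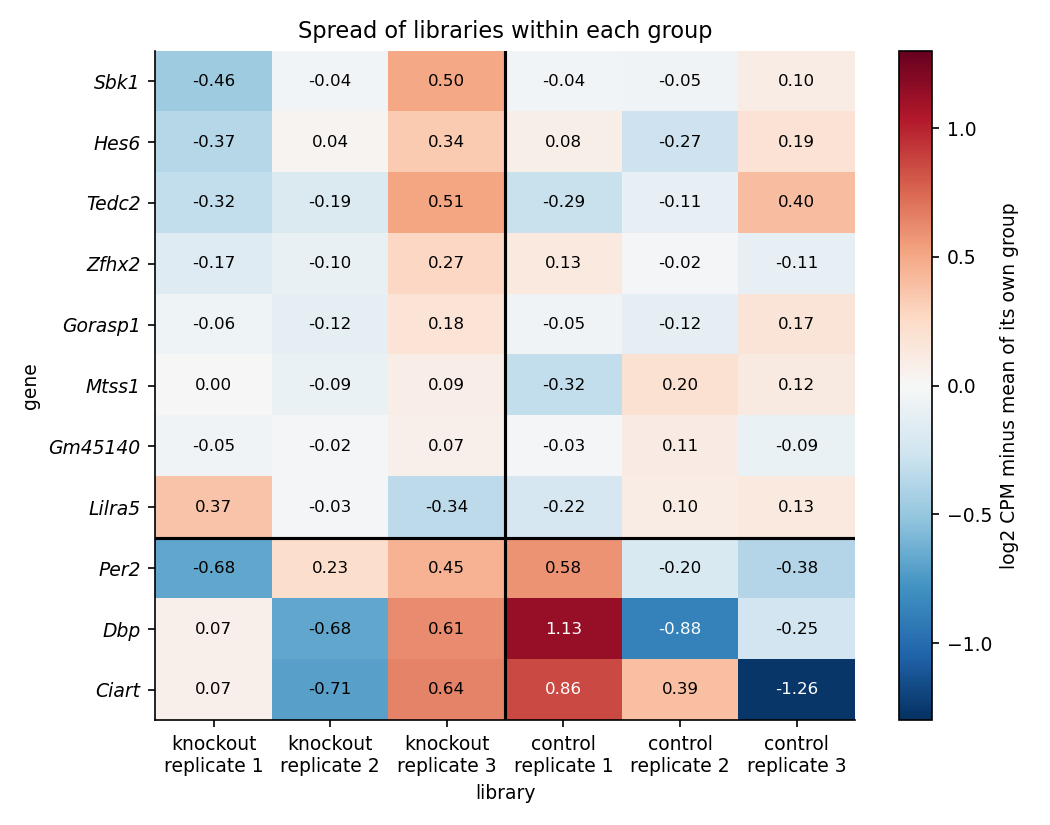
Deviation of each library's log2 CPM from the mean of its own group, for the 8 members (above the line) and for Per2, Dbp and Ciart (below it). Red is above and blue below the group mean. Knockout replicate 3 is above its group mean for 7 members and for the 3 clock genes, while control replicate 1, at 1.13 for Dbp and 0.86 for Ciart, is at or below 0.13 for every member.

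With the group means removed, the correlation of a member with Dbp over the 6 libraries (4 degrees of freedom) ran from -0.63 for Mtss1 to 0.63 for Zfhx2. With Ciart it ran from -0.47 for Lilra5 to 0.69 for Zfhx2. Zfhx2 had the highest coefficient to both genes and 0.79 to Per2. Its coefficient to Dbp fell to 0.29 with total-count scaling and 0.26 in log2(TPM + 1), while that to Ciart rose to 0.80 and 0.82. Lilra5 stood at -0.54 to Dbp and -0.95 to Per2. These coefficients share library scaling and few libraries, and are a description. In all, 5 of the 8 members (62.5%) lay above 0 to Dbp, with a median of 0.14. The share was 48.8% of the 13189 other tested genes (median -0.02) and 67.6% of the 487 other genes that were higher at an unadjusted p under 0.05 (median 0.29), so that the members lay below those other higher genes in this respect. To Ciart 3 of the 8 lay above 0 (37.5%, median -0.14), against 46.9% of the other tested genes and 43.3% of the other higher genes. With total-count scaling the numbers were 3 and 6, and in log2(TPM + 1) they were 3 and 7, so that which clock gene the members follow more depends on the scaling. Both scalings were chosen after seeing the data.

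Knockout replicate 3 was the highest of the 3 knockout libraries for 7 of 8 members (87.5%). That held for 31.5% of the other tested genes and for 48.7% of the 487 other genes that were higher at an unadjusted p under 0.05. Leaving out that library lowered the fold changes of the 7 and raised that of Lilra5. Without it the log2 fold change was 1.06 for Tedc2, 0.93 for Sbk1, 0.84 for Mtss1, 0.84 for Hes6, 0.79 for Gm45140, 0.69 for Zfhx2 and 0.60 for Gorasp1, and 1.34 for Lilra5. All 8 kept their direction, which follows from groups that did not overlap and supports nothing.

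Some members tracked each other within the groups. Of 28 pairs, 18 had a within-group coefficient above 0 (median 0.37), and 3 exceeded 0.8: Tedc2 with Gorasp1 (0.92), Sbk1 with Hes6 (0.87) and Sbk1 with Tedc2 (0.83). Lilra5 stood apart, at -0.91 with Zfhx2, -0.81 with Sbk1 and -0.79 with Hes6. Gm45140 and Mtss1 followed the rest weakly, with no coefficient above 0.54 in size. These pairs share the 6 libraries.

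The clock genes lay on both sides of 0. All 18 were tested, and 12 had an unadjusted p under 0.05 in edgeR's quasi-likelihood test (66.7%, against 10.8% of all genes), 9 higher and 3 lower in the knockout. The median log2 fold change was 0.55 against 0.01 over all genes, and 0 of the 18 passed Benjamini-Hochberg adjustment. Without control replicate 3 the 12 became 7. The list was examined before in these data and its values are no independent support. The 4 with the smallest p were Cry2, a repressor (0.84, standard error 0.19), Ciart (2.28, standard error 0.54), Per2 (1.31, standard error 0.34) and Tef, an output factor like Dbp (1.05, standard error 0.30). Dbp itself had a log2 fold change of 1.74 with a standard error of 0.57. The 3 lower genes past that p were the activators Bmal1 (-0.91), Clock (-0.63) and Npas2 (-0.98), and Npas2 overlapped between the groups in TMM-scaled CPM. Per1, a repressor, and Nfil3 also lay below 0 without passing it (-0.71, standard error 0.31, and -0.34, standard error 0.31). Per1 was lower in each knockout library in TMM-scaled CPM, so not all repressors were higher. These 5 genes were named after their values were seen. Dbp, Per2 and Tef overlapped between the groups once scaled by total counts or in TPM. No source used here gives the hour at which each liver was taken, and the part of sampling time in these values was not tested.

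Promoter sequence was read for the members in a RefSeq table (GRCm38.p6) of 250 bases before to 50 bases after each start site. Of the 8 members 5 had an entry: Tedc2, Zfhx2, Gorasp1, Hes6 and Lilra5. Mtss1, Sbk1 and Gm45140 had none. On both strands the E-box CACGTG, the D-box TTATGTAA bound by Dbp and its kin, and the ROR element TAGGTCA or AAGGTCA were searched. Of 32851 promoters, 7.15% held the E-box, 0.938% the D-box and 7.16% the ROR element. Gorasp1 was the member with an E-box, 1 copy whose first base lies 3 bases after the start site. Ciart had 3 copies, whose first bases lie 116, 58 and 44 bases before it. Both windows are shown from 150 bases before the start site to 20 bases from it, since they set a member beside the clock gene of the same knockout order. They are written 5′ to 3′ on the minus strand with the E-box in capitals, at chr9:119937539-119937708 for Gorasp1 and chr3:95882209-95882378 for Ciart.
Gorasp1: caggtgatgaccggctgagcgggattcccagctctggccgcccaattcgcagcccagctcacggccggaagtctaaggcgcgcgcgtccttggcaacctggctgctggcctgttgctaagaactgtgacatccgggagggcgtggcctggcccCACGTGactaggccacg
Ciart: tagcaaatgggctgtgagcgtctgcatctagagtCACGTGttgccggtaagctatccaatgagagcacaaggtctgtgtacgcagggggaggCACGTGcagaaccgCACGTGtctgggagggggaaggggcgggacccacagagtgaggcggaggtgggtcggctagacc
Lilra5 held 1 ROR element, which starts 5 bases after its start site, and no member window held a D-box. The windows of Tedc2, Zfhx2, Hes6 and also Dbp held none of the 3 motifs. A match here is a match of letters and not evidence of binding.

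Relatives and binding partners of the members were examined for shared direction. Of 36 listed, 35 were in the table and 28 were tested. Among them 3 had an unadjusted p under 0.05 in edgeR's test (10.7%, against 10.8% of all genes), and all 3 were lower in the knockout. Leaving out control replicate 1 made that count 0, and leaving out knockout replicate 1 or 3, or using TPM, made it 1. The median log2 fold change was 0.04. Mtss2, the closest relative of Mtss1, stood at 5.63, 3.90 and 5.16 CPM in the knockout and at 8.74, 8.42 and 5.76 CPM in the control libraries, a log2 fold change of -0.64 (standard error 0.24). Tedc1, which forms a complex with Tedc2, stood at 0.372, 0.803 and 0.330 CPM against 0.909, 1.95 and 0.829 CPM (-1.29, standard error 0.56). Zfhx4, of the Zfhx2 family, had a log2 fold change of -0.49 with a standard error of 0.18. Their adjusted p ran from 0.395 to 0.461 with Benjamini-Hochberg adjustment. The fold changes of Mtss2 and Tedc1 thus had the opposite sign to those of Mtss1 and Tedc2.

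The other closest relatives overlapped between the groups. Gorasp2, the second Golgi stacking protein, had a log2 fold change of 0.09 (standard error 0.15), and Hes1, the Notch target that Hes6 counteracts, one of 0.31 (standard error 0.44). Zfhx3 stood at -0.27 (standard error 0.20) and Sbk2 at 0.02 (standard error 0.71), the latter at under 1 CPM in every library. Pirb, an inhibitory receptor related to Lilra5, stood at 0.08 (standard error 0.27). Lilra6, a second relative of Lilra5, named after its values were seen, also overlapped, at 1.97, 1.03 and 0.879 CPM in the knockout and 0.202, 1.14 and 0.293 CPM in the control libraries. It had a log2 fold change of 1.23 (standard error 0.68) and the knockout order of Lilra5. With 1 library left out, the log2 fold change ran from -0.06 to 0.92 for Hes1, from -0.45 to 0.46 for Sbk2, from -0.09 to 0.33 for Pirb and from -0.01 to 0.19 for Gorasp2, so that none of these 4 has a settled direction. Sbk3, Hes3 and Hes5 had 0 counts in all 6 libraries, which allows up to 3 counts, or 0.143 to 0.180 CPM.

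Genes beside the members on the chromosome were listed by position alone: each gene of the table that overlaps a member and the nearest one on either side. Of 20 such genes 17 were tested, and 3 had an unadjusted p under 0.05 (17.6%, against 10.8% of all genes), all higher in the knockout. In TPM 1 did. The median was 0.10. Per2 lies 1943 bases from Hes6 and is the clock gene described above. Ntn3, a guidance cue of the netrin family, lies 5522 bases from Tedc2 and stood at 3.67, 2.47 and 4.61 CPM against 1.97, 1.52 and 1.85 CPM, without overlap (log2 fold change 1.01, standard error 0.32). Lat, the T cell adaptor, lies 68807 bases from Sbk1 and stood at 2.29, 2.87 and 1.15 CPM against 0.808, 1.43 and 0.537 CPM, with overlap (1.18, standard error 0.50). Of the 3 pairs, Hes6 and Per2 had a within-group coefficient of 0.66 and the same knockout order. This was not particular to the neighbour: Zfhx2 (0.79) and Sbk1 (0.62), on other chromosomes, had like coefficients to Per2 and the same knockout order. Coefficients of the other pairs are not given. In the control libraries Hes6 and Per2 parted: Per2 was highest in replicate 1 and Hes6 in replicate 3. Mtss1, Zfhx2, Gorasp1, Lilra5 and Gm45140 had no neighbour past that threshold.

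**Figure D3:**
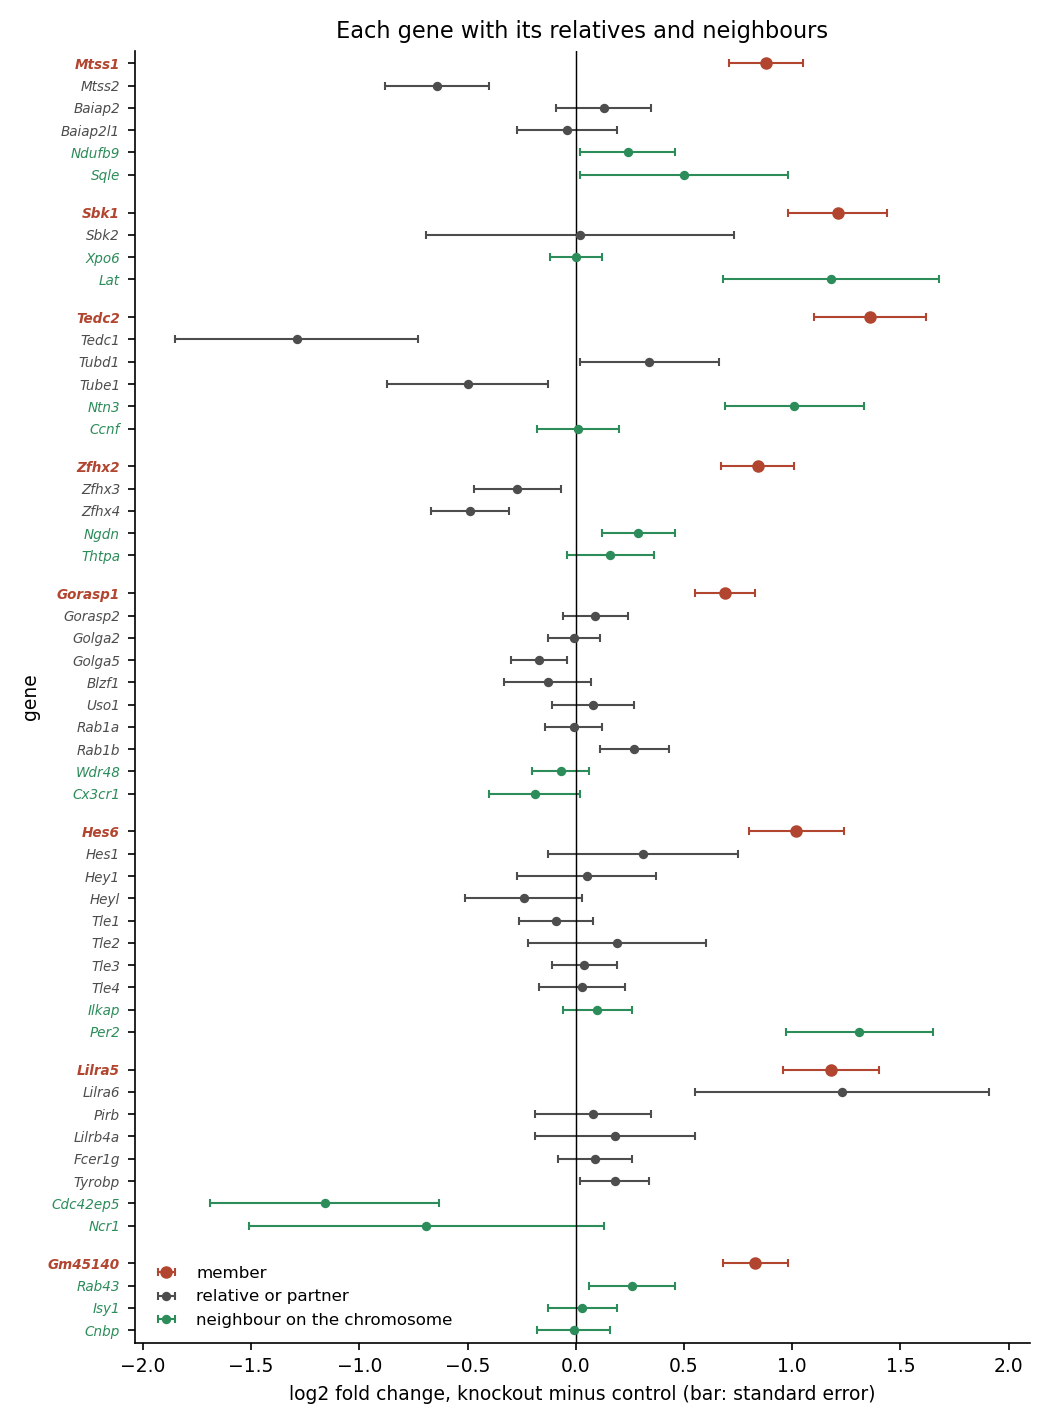
Log2 fold change (knockout minus control) with its standard error for each member, its relatives or partners and its neighbours on the chromosome, as far as they were tested. The 8 members, chosen as higher, lie between 0.69 and 1.36, while the relatives have a median of 0.04 and the neighbours one of 0.10.

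Over all 6 libraries, the genes most like each member were sought among 12514 genes with a mean of at least 1 CPM, by Pearson's r of log2 CPM. These coefficients include the difference between groups that chose the members. With 6 libraries, the best of 12514 genes can also reach a high coefficient by chance, and how high was not tested. The names are therefore a description. For Mtss1 they were Nmt1 (0.995) and Sh2d2a (0.980), for Tedc2 Plxnb2 (0.996) and Gins4 (0.994), and for Gorasp1 Irf2 (0.999) and Clta (0.991). Sbk1 was most like Pip4p1 (0.993) and Tpcn1 (0.987), and Hes6 most like Tpcn1 (0.995), so that Tpcn1, a cation channel of endosomes, was named for both. Zfhx2 was most like Mrpl34 (0.996) and Cipc (0.992), a partner of Clock. Lilra5 was most like Arid3a (0.986) and Zbtb7b (0.980), and Gm45140 most like Znfx1 (0.987) and Irf9 (0.985). A high coefficient did not mean a like fold change: Nmt1 differed by 0.12 on the log2 scale where Mtss1 differed by 0.88.

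Lilra5 was set beside markers of the leukocytes that a liver holds. Summed neutrophil markers (10 genes) stood at 128.6, 26.0 and 20.3 CPM in the knockout and 19.2, 35.9 and 32.0 CPM in the control libraries, with Ly6g under 30 counts in every library. Monocyte markers (8 genes) stood at 141.6, 116.0 and 81.0 CPM against 95.0, 143.0 and 100.1 CPM. Both sums overlapped between the groups. T and natural killer cell markers (10 genes) stood at 32.7, 23.2 and 18.1 CPM against 14.5, 14.1 and 13.3 CPM, without overlap, and 3 of 10 were higher at an unadjusted p under 0.05. With total-count scaling the T and natural killer cell sum did overlap, from 16.8 CPM in the lowest knockout to 17.7 CPM in the highest control library. These 3 sums and that of the B cell markers (4 genes; 7.39, 5.33 and 3.96 CPM in the knockout) share the knockout order of Lilra5, with replicate 1 highest and replicate 3 lowest. None of these sums shares its control order, in which control replicate 3 was highest. The neutrophil and monocyte sums were highest in control replicate 2, and the T and natural killer cell and B cell sums in control replicate 1. Kupffer cell markers (9 genes) stood at 822.1, 847.0 and 684.5 CPM in the knockout and 348.1, 502.2 and 642.9 CPM in the control libraries. Of these 9, 7 were higher at an unadjusted p under 0.05. Of all 13197 tested genes, 495 were higher and 924 lower at that p in edgeR's test, and 0 passed adjustment. The Kupffer cell sum shares the control order of Lilra5 but not its knockout order. It did not overlap between the groups, though barely so with total-count scaling (635.0 CPM in the lowest knockout, 631.8 CPM in the highest control library). Taken singly, each of the 9 markers overlapped with total-count scaling and in TPM. The largest part of the sum was Cd5l, at 314.1 to 405.8 CPM in knockout and 180.4 to 301.9 CPM in control livers. Fcer1g, the signalling chain that pairs with activating receptors of this kind, had a log2 fold change of 0.09 (standard error 0.17), and Tyrobp one of 0.18 (standard error 0.16); both were named after their values were seen. The part of these cells in the level of Lilra5 was not tested.

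**Figure D4:**
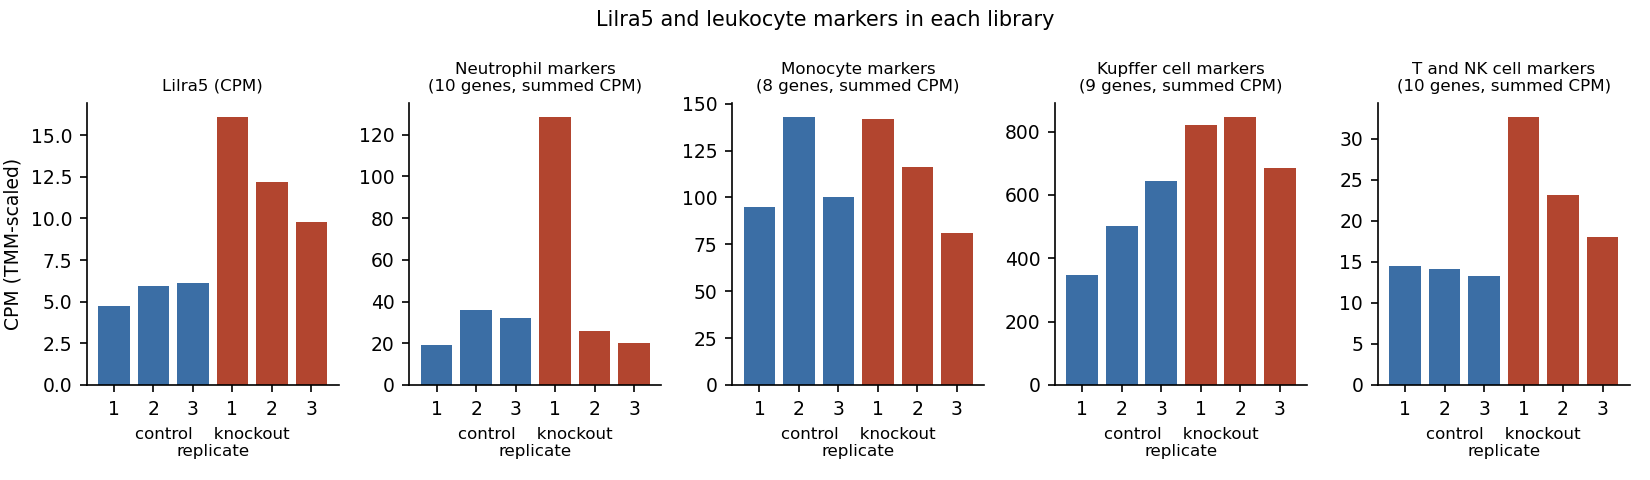
Lilra5 in CPM and the summed CPM of 4 leukocyte marker lists, each on its own axis from 0, in control (blue) and knockout (red) replicates 1 to 3. In the knockout libraries Lilra5 and the neutrophil, monocyte and T and natural killer cell sums are highest in replicate 1 and lowest in replicate 3, and only the neutrophil sum of knockout replicate 1, at 128.6 CPM, lies far from all others of its panel.

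Markers of other cell types were summed in the same way. Hepatocyte markers stood at 118104 to 137656 CPM in knockout and 66128 to 115888 CPM in control livers, and endothelial markers at 465.9 to 491.6 CPM against 381.2 to 452.4 CPM. Both sums lay higher in each knockout library, and both overlapped with total-count scaling; at an unadjusted p under 0.05, 1 of 7 hepatocyte markers was higher and 1 lower, and 1 of 8 endothelial markers was higher. Most of the hepatocyte sum was albumin, at 101987 to 117659 CPM in knockout and 54912 to 98600 CPM in control livers. Cholangiocyte markers stood at 240.5 to 551.4 CPM in knockout and 511.7 to 1236 CPM in control livers, overlapping, with 4 of 5 lower at an unadjusted p under 0.05. Most of that sum was Spp1, at 231.0 to 515.4 CPM in knockout and 483.0 to 1153 CPM in control livers. Proliferation markers stood at 26.8 to 43.0 CPM against 49.2 to 118.8 CPM, and 6 of 6 were lower at that threshold, whereas the centriole gene Tedc2 was higher. Of all 13197 tested genes, 924 were lower and 495 higher at that threshold, and 0 passed adjustment. Stellate cell markers stood at 305.9 to 315.2 CPM against 325.2 to 488.4 CPM, with 0 of 5 past that threshold. B cell markers overlapped, at 3.96 to 7.39 CPM against 3.76 to 5.10 CPM. Neural and enteroendocrine markers, sought because Zfhx2 and Hes6 are known from such cells, summed to 0.110 to 0.401 CPM in knockout and 0.439 to 0.909 CPM in control livers, with Chga and Neurod1 at 0 counts in every library. Each knockout library lay below each control library in this sum, but very few reads made it up. Tubb3 reached 7 counts (0.401 CPM) in knockout replicate 2 against 5 (0.252 CPM) in control replicate 1, and alone it overlapped between the groups. Snap25 was seen only in control replicate 1, at 13 counts. Of the 5 markers 0 had enough counts to be tested, so the sum gives no direction to set beside Zfhx2 and Hes6. The part of the other cell types in the members' levels was not tested.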

How the data were processed

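Bulk polyA RNA of 3 knockout and 3 control livers was compared. The authors deposited estimated counts per gene and TPM values for each library. RSEM 1.3.3, HISAT2 2.2.1, DESeq2 1.38.3 and fastp 0.23.2 stand in the submitters' processing notes, without their roles, and the build is GRCm38. Of the deposited estimated counts, 6.93% were not whole, and all were rounded. The counts were tested in edgeR 4.0.16 (quasi-likelihood, TMM, filterByExpr, Benjamini-Hochberg over 13197 genes), with DESeq2 1.42.0, limma 3.58.1 on voom or TPM values, other scalings and filters, a replicate block and each library left out as alternatives. The edgeR fit was tested on simulated data. The TPM deposited by the authors gave levels per length. Positions came from GENCODE M21, which held 21852 of the table's identifiers. The members, lists and rules were chosen with earlier results of these data known. Named are the members, Dbp, Ciart, up to 4 genes a list with an unadjusted p under 0.05, the closest relatives and the 2 most alike genes, of which 1 is not reported here; other names were chosen after their values were seen. The libraries of a group are labelled as biological replicates. R 4.3.3, Python 3.11.15, pandas 2.3.3 and matplotlib 3.10.9 were used.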

Additional observations from a re-analysis of the deposited data

How the results depend on the processing

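The number of genes passing edgeR's adjusted test was 0 and became 118 in DESeq2, and was 0 to 2 when 1 library was left out, with 2 without control replicate 2 and 2 without control replicate 3. None of these leave-one-out calls was a member. Of 18 clock genes, 7 to 11 lay past an unadjusted p of 0.05 with 1 library left out, the 7 without control replicate 3, against 12. Of the relatives it was 0 to 3, with 0 without control replicate 1 and 1 without knockout replicate 1 or 3, and 1 in both log2(TPM + 1) and log2(TPM + 0.1). Of the neighbours it was 2 to 4, and 1 in both TPM fits. All 8 members stayed above 0 in 15 alternatives. They were chosen as higher and their groups did not overlap in CPM or TPM, so the kept sign supports nothing. The lowest log2 fold change was 0.41, for Gorasp1 and Zfhx2 in log2(TPM + 1), whose all-gene median was -0.20. The number of members above 0 to Dbp within groups went from 5 to 3 with total counts and with TPM, and to Ciart from 3 to 6 and 7. The causes were not tested. With 3 livers a group and 94 counts at the lowest (Lilra5), both the number of animals and the depth limit the precision, and their parts were not separated.

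With the replicate number as a block, edgeR called 5 genes, of which 1 was a member, Tedc2. Same-numbered libraries had correlations of their deviations of 0.11, -0.01 and 0.13, and 1 of 3 knockout libraries correlated best with its own number. No pairing by number was thus seen. With 3 libraries a group these values cannot show that the animals were unpaired.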
